A study of Mus musculus with 22 samples.

Results

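The 60 genes described here encode the extracellular matrix of the vessel wall and the enzymes that remodel it, out of 21938 protein-coding genes of the GENCODE M21 annotation on chromosomes 1 to 19, X and Y (GRCm38.p6). They were taken from a list of named collagens, elastic fibre genes, proteoglycans, glycoproteins, metalloproteinases and their inhibitors, and were sorted into 10 roles. An Oct4 chromatin immunoprecipitation sequencing (ChIP-seq) peak was assigned to a gene if its summit, the base with the most reads, lay in the gene body or within 50 kb of it.

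The peaks came from frozen aortic segments that reached from the root through the arch to the division of the carotid artery, taken from C57BL/6 mice after 18 weeks of Western diet. Both groups were apoE-/- and carried the tamoxifen-inducible Myh11-CreERT2 and the Rosa-eYFP reporter. Tamoxifen was given before the diet, the Oct4 gene (Pou5f1) was intact in smooth muscle cells (SMC) of the SMC Oct4-WT/WT littermates, and it was deleted in SMC of the SMC Oct4-Δ/Δ mice. Tissue of 15 mice per genotype gave 1 ChIP sample per genotype, so no spread between replicates is known and the genotypes could not be compared with a test. The mice were male, as this Cre transgene is Y-linked. The tissue was a mixture of cell types, and cells other than SMC kept Oct4 in both groups, so fewer cells of a type and less signal per cell cannot be told apart. The labels give no age at collection.

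The deposited lists held 5455 peaks for SMC Oct4-WT/WT and 7479 for SMC Oct4-Δ/Δ, and the smallest summit pileup was 5 reads in both. A further list named as wild-type over knockout was equal to the wild-type list in all 5455 entries and adds nothing. The expected pileup was 0.458 reads in SMC Oct4-WT/WT and 0.462 in SMC Oct4-Δ/Δ, and the fold enrichment of a peak is its summit pileup plus 1 over the expected pileup plus 1. No peak lay within 50 kb of Pou5f1 in either list, so the peaks do not check the genotype labels. Every peak of a matrix gene lay outside the 43 bins of 1 Mb in which 20 or more peaks crowded together.

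The matrix gives the arterial wall its strength and recoil. Fibrillar collagens bear tension, elastin and the fibrillins form the elastic lamellae, basement membranes of type IV collagen and laminin surround each SMC, and proteoglycans fill the space between. Lysyl oxidases cross-link the fibres, metalloproteinases and ADAMTS proteases cut them, and TIMP proteins inhibit the proteases. In atherosclerotic lesions, SMC make most of the matrix of the fibrous cap. Oct4 is a POU factor best known from pluripotent cells, where it binds an octamer of letters, often beside a Sox factor.

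Of the peaks on which the results turn, 2 are shown by sequence, 50 bases to each side of the summit, read from the plus strand of the RefSeq GRCm38.p6 genome. That of Lama2 was the highest wild-type peak of a matrix gene, was also called in SMC Oct4-Δ/Δ, and holds a short repeated unit. That of Col1a2, called in SMC Oct4-Δ/Δ alone, is a long run of T. Both were chosen after the values were seen. Capitals mark the called peak (the wild-type one for Lama2), and lower case the bases around it.
Lama2, both lists, chr10:27597364-27597464: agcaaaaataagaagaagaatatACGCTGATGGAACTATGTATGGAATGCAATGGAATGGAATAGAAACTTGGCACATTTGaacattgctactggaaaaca
Col1a2, SMC Oct4-Δ/Δ list alone, chr6:4562208-4562308: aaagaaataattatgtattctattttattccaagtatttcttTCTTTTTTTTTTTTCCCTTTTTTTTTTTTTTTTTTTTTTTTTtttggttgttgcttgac

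A wild-type Oct4 peak was assigned to 4 of the 60 matrix genes, Adamts17, Lama2, Lamb1 and Loxl2, and a knockout peak to 14, which included those 4. Lama2, the alpha chain of the laminin that anchors muscle cells, had 2 wild-type peaks and the other genes 1 each, 5 in all. The other 10 genes with a knockout peak were Acan, Col1a2, Col4a3, Col5a3, Fbn2, Lama4, Serpinh1, Thbs1, Tnc and Vcan, and the knockout list gave 20 peaks over the 14 genes. No matrix gene had a wild-type peak alone, and 46 of the 60 had a peak in neither list. Of all 21938 protein-coding genes, 4114 had a wild-type peak, 6689 a knockout peak and 3601 a peak of each list. Over all genes too, most of those with a wild-type peak also had a knockout peak, and most genes had neither.

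In SMC Oct4-WT/WT the 4 genes were 6.67% of the matrix genes (exact binomial 95% interval 1.85 to 16.2, counting error only), against 18.8% of all protein-coding genes. In SMC Oct4-Δ/Δ the 14 genes were 23.3% (interval 13.4 to 36.0), against 30.5% of all genes, a value inside the interval. Genes with a peak of each list were 4 of 60 among matrix genes and 16.4% of all genes. Inside the gene body, a wild-type summit was found in 3 matrix genes, or 5%, against 5.43% of all genes. A knockout summit lay in the body of 8, or 13.3% (interval 5.94 to 24.6), against 9.21% of all genes. Outside the bins with crowded peaks, 18.0% of all genes had a wild-type peak and 29.8% a knockout peak. No peak of a matrix gene lay in those bins, so leaving them out could not change the 4 and 14. The order depended on the assignment. With a window of 10 kb, 9 of the 60 matrix genes had a knockout peak, slightly above the 14.2% of all genes. When each peak was given to the nearest transcript start at any distance, 9 of the 60 matrix genes had a wild-type peak, against 11.3% of all genes, and 17 had a knockout peak, against 17.7%, so that both shares of matrix genes were then above those of all genes.

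The windows of the 60 genes covered 10.8 Mb, with a median of 157 kb per gene against 117 kb over all genes. If the wild-type peaks of each chromosome were spread evenly over its sequenced bases, these windows would hold 17.4 of them, and 5 were found (exact Poisson 95% interval 1.62 to 11.7, counting error only). The ratio was 0.287 (0.0932 to 0.670), against 1.11 for the windows of all protein-coding genes. For the knockout list, 25.7 peaks would fall there and 20 were found (12.2 to 30.9), a ratio of 0.778 (0.476 to 1.20) against 1.15 for all genes. With the bins of crowded peaks left out, 12.9 wild-type and 21.9 knockout peaks would fall there, and the ratios were 0.389 and 0.913. Under the even spread with all bins kept, 15.0 matrix genes would have a wild-type peak and 20.6 a knockout peak, and 4 and 14 did. Of all protein-coding genes, 4664 would have a wild-type peak and 6454 a knockout peak, and 4114 and 6689 did. Peaks cluster along chromosomes, so these intervals are narrower than the true uncertainty.

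**Figure D1:**
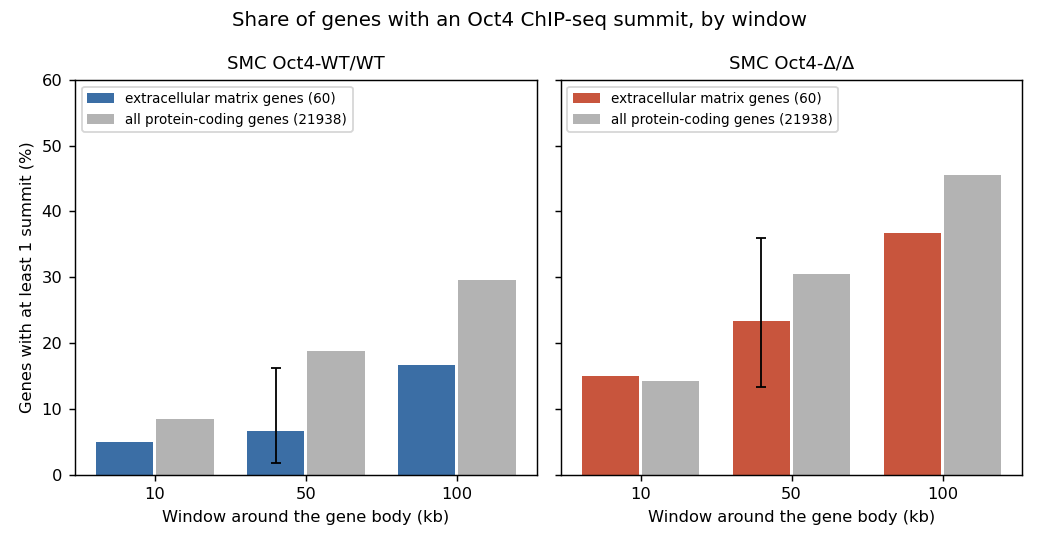
Bars give the percentage of the 60 extracellular matrix genes (blue or red) and of all 21938 protein-coding genes (grey) with at least 1 Oct4 summit in the gene body or within 10, 50 or 100 kb, for SMC Oct4-WT/WT (left) and SMC Oct4-Δ/Δ (right). The black line is the exact binomial 95% interval at 50 kb, which lies below the 18.8% of all genes on the left and spans the 30.5% on the right.

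The distance to the nearest summit was also read for every gene, with no window. Over the 60 matrix genes its median was 340 kb in SMC Oct4-WT/WT (quartiles 135 and 510), against 227 kb over all genes (quartiles 77.3 and 506). In SMC Oct4-Δ/Δ the median was 150 kb (quartiles 58.7 and 286), against 118 kb over all genes (quartiles 35.1 and 284). The median and the lower quartile of the matrix genes were thus farther than those of all genes in both lists, and the upper quartiles were nearly equal. The farthest were Timp3 in SMC Oct4-WT/WT, at 1797 kb, and Mmp16 in SMC Oct4-Δ/Δ, at 1576 kb.

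**Figure D2:**
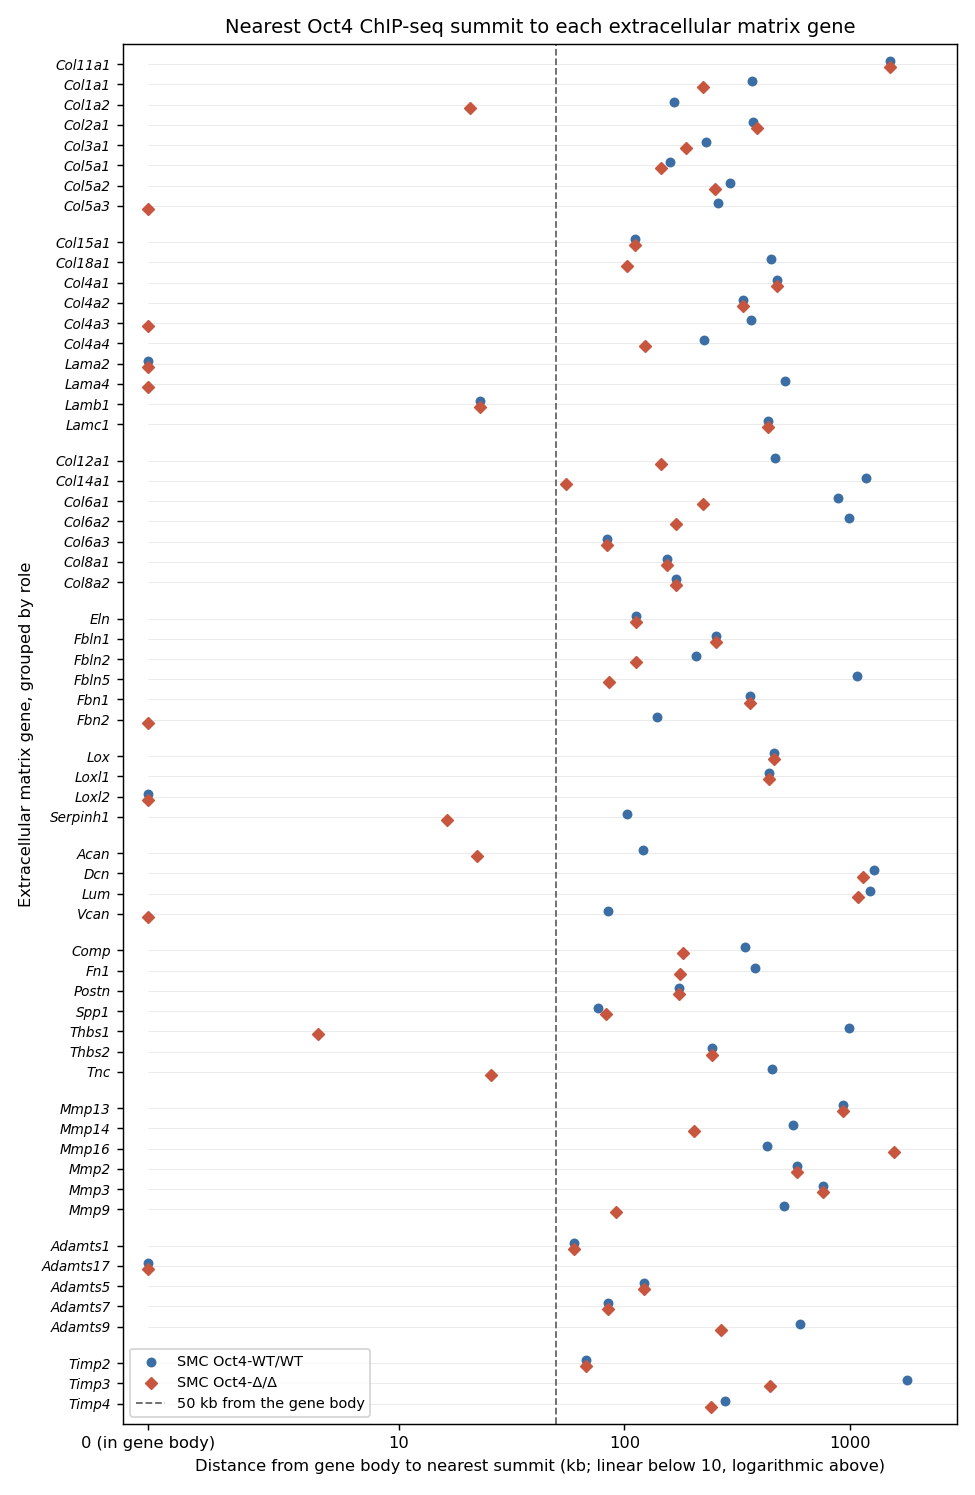
Each row is 1 extracellular matrix gene, grouped by role, with the distance in kb from its body to the nearest summit in SMC Oct4-WT/WT (blue circles) and SMC Oct4-Δ/Δ (red diamonds); the axis is linear below 10 kb and logarithmic above, and the dashed line marks 50 kb. Few genes lie left of the line, 4 in SMC Oct4-WT/WT and 14 in SMC Oct4-Δ/Δ.

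**Figure D3:**
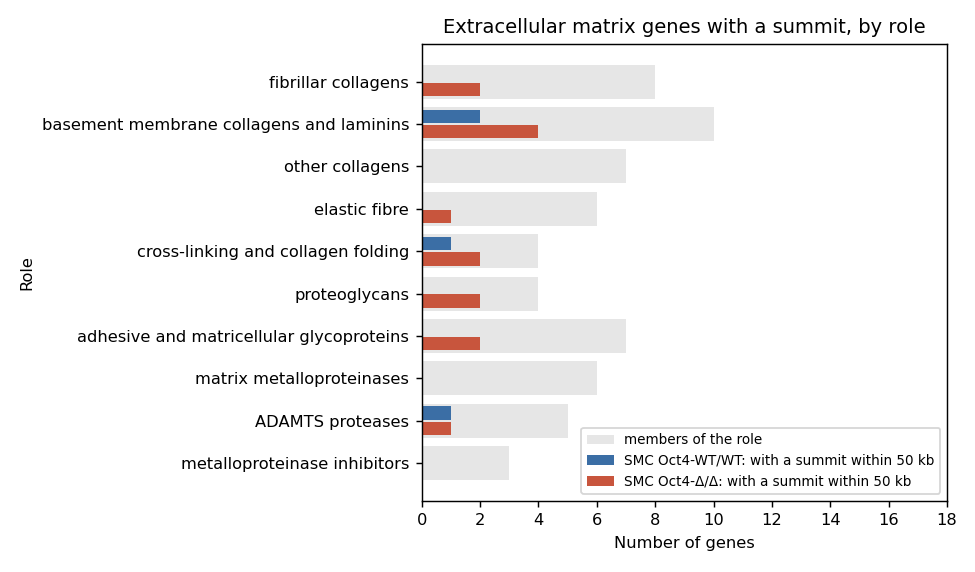
Grey bars give the number of genes in each role, and blue and red bars how many of them had a summit in the body or within 50 kb in SMC Oct4-WT/WT and in SMC Oct4-Δ/Δ. The role with the most genes, basement membrane, had 2 and 4 of 10 with a summit, cross-linking and collagen folding had 1 and 2 of 4, proteoglycans had 0 and 2 of 4, and other collagens, matrix metalloproteinases and their inhibitors had none.

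Among the 10 basement membrane collagens and laminins, Lama2 and Lamb1 had peaks in both lists, and Col4a3 and Lama4 in SMC Oct4-Δ/Δ alone. The highest summit of any matrix gene in SMC Oct4-WT/WT lay in an intron of Lama2 (chr10:27597387-27597444), 19.4 kb from a transcript start, with 17 reads (exact Poisson 95% interval 9.90 to 27.2) and a fold enrichment of 12.3. At the same place SMC Oct4-Δ/Δ had 20 reads (12.2 to 30.9) and a fold of 14.4. The second peak of Lama2, in another intron (chr10:27155766-27155807), had 10 reads in both lists, and the intervals of each pair overlapped. Lamb1, the beta chain shared by most laminins of the vessel wall, had its peak 23.0 kb beyond the end of the gene (chr12:31352607-31352661), with 16 reads and a fold of 11.7 in SMC Oct4-WT/WT and 20 reads and a fold of 14.4 in SMC Oct4-Δ/Δ. That summit was nearer to Dld, 1.18 kb from one of its transcript starts, than to Lamb1.

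Lama4, the laminin alpha chain of vascular basement membranes, had 3 knockout peaks and no wild-type summit closer than 514 kb. They held 12, 9 and 8 reads, with folds of 8.89, 6.84 and 6.16. The first lay in an intron (chr10:39071434-39071482), 17.7 kb from a transcript start, in sequence whose 31-mers had a median of 1 copy in the assembly. The second lay 25.8 kb upstream in sequence with a median of 3 copies, and the third in an intron with 55 copies and 99.0% of bases marked as repeat. Col4a3, a type IV collagen chain, had 1 knockout peak of 8 reads in an intron (chr1:82710338-82710376), with a fold of 6.16. Neither list had a peak for Col4a1, Col4a2, Col4a4, Col15a1, Col18a1 or Lamc1.

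Of the 8 fibrillar collagens, only Col1a2 and Col5a3 had a peak, in SMC Oct4-Δ/Δ alone. The peak of Col1a2, which encodes a chain of type I collagen, lay 20.7 kb beyond the end of the gene (chr6:4562250-4562291), with 13 reads and a fold of 9.58, in a window of 22.4% GC rich in T on the strand shown. The peak of Col5a3, a type V collagen chain, lay in an intron (chr9:20810171-20810209), with 9 reads and a fold of 6.84. Col1a1, Col2a1, Col3a1, Col5a1, Col5a2 and Col11a1 had none, and their nearest wild-type summits were 159 kb (Col5a1) to 1507 kb (Col11a1) away. The 7 other collagens, Col6a1, Col6a2, Col6a3, Col8a1, Col8a2, Col12a1 and Col14a1, had no peak in either list.

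Of the 6 elastic fibre genes, Fbn2, a fibrillin of developing elastic tissue, had 2 knockout peaks and no wild-type peak. They held 8 reads in an intron (chr18:58205943-58205981) and 7 reads at 34.7 kb upstream (chr18:58245171-58245209), with folds of 6.16 and 5.47, the latter the lowest of all peaks of matrix genes. Eln, which encodes elastin, and Fbn1, Fbln1, Fbln2 and Fbln5 had none. For Eln the nearest summit was 113 kb away in both lists.

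Among the 4 genes of cross-linking and collagen folding, Loxl2, a lysyl oxidase relative that oxidises type IV collagen, had the only peak of a matrix gene in an exon. Its wild-type summit was at base 22 of the 3′ UTR (chr14:69693122-69693168), with 10 reads and a fold of 7.54, and SMC Oct4-Δ/Δ had 13 reads and a fold of 9.58 with the summit 7 bp away. Serpinh1, the collagen chaperone HSP47, had a knockout peak of 10 reads at 16.4 kb beyond its end (chr7:99328952-99328998), inside the body of Map6, with a fold of 7.52. Lox and Loxl1 had no peak, and the nearest summits were 459 kb and 438 kb away in each list.

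Of the 4 proteoglycans, Acan and Vcan had a knockout peak and no wild-type peak. Acan encodes aggrecan, a cartilage proteoglycan that also occurs in lesions, and its peak had the highest fold, 10.3, among the 15 peaks of the 60 genes called in SMC Oct4-Δ/Δ alone, with 14 reads (7.65 to 23.5). It lay 22.1 kb beyond the end of Acan (chr7:79137181-79137238), inside Mfge8 and 0.182 kb from a transcript start of that gene. Vcan, which encodes versican, a main proteoglycan of the arterial intima, had its peak in an intron (chr13:89729117-89729158), with 11 reads and a fold of 8.21. The small proteoglycans Lum and Dcn, which bind collagen fibrils, had the nearest summits at 1226 kb and 1281 kb in SMC Oct4-WT/WT and at 1086 kb and 1141 kb in SMC Oct4-Δ/Δ.

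Of the 7 adhesive and matricellular glycoproteins, Thbs1 and Tnc had knockout peaks alone. Thbs1, thrombospondin 1, had 10 reads at 6.77 kb beyond its end (chr2:118133889-118133928) and 8 reads at 45.7 kb (chr2:118172772-118172810), both inside Fsip1, with folds of 7.52 and 6.16. The first of them lay in sequence with a median of 2251 copies, all of it marked as repeat. Tnc, tenascin C, had 10 reads and a fold of 7.52 at 25.7 kb beyond its end (chr4:63934104-63934151). Fn1, Comp, Spp1, Thbs2 and Postn had no peak in either list.

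Of the 14 proteases and inhibitors, 1 had a peak in each list, and these were not tested as a group. None of the 6 metalloproteinases (Mmp2, Mmp3, Mmp9, Mmp13, Mmp14 and Mmp16) and none of the 3 inhibitors (Timp2, Timp3 and Timp4) had a peak in either list. Of the 5 ADAMTS proteases, Adamts17, whose human counterpart is mutated in a syndrome of short stature and displaced lenses, had a wild-type peak in an intron (chr7:66894839-66894888), 14.6 kb from a transcript start, with 16 reads (9.15 to 26.0) and a fold of 11.7. SMC Oct4-Δ/Δ had 13 reads (6.92 to 22.2) and a fold of 9.58 there, the only shared peak of a matrix gene with more reads in SMC Oct4-WT/WT. A second knockout peak of Adamts17, with 9 reads, lay 43.3 kb beyond the gene (chr7:67196507-67196545). Adamts1, Adamts5, Adamts7 and Adamts9 had none.

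Each of the 5 wild-type peaks of matrix genes was overlapped by a knockout peak (100%, exact binomial 95% interval 47.8 to 100), against 67.9% of all wild-type peaks. Their folds ran from 7.54 to 12.3, and among the 2109 wild-type peaks in that range 86.4% were overlapped. A wild-type peak that the knockout list did not overlap was found at 0 matrix genes (interval 0 to 5.96%), against 4.24% of all genes, a value inside the interval. The full overlap held at 50 kb: with a window of 100 kb, 11 of 12 wild-type peaks of matrix genes were overlapped (91.7%). With the nearest transcript start, 8 of 11 were (72.7%). Of the 20 knockout peaks, 5 were overlapped by a wild-type peak (25%, interval 8.66 to 49.1), against 47.6% of the knockout peaks on chromosomes, a value inside the interval. The other 15, at 11 genes (18.3%, against 18.9% of all genes), had folds of 5.47 to 10.3, and among the 5142 knockout peaks in that range 64.0% were not overlapped either. The share of matrix genes with an unshared knockout peak was thus close to the background.

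At the 5 shared places the summit reads were 17 and 20, 16 and 20, 16 and 13, 10 and 13, and 10 and 10 in the wild-type and the knockout list, with overlapping Poisson intervals in each pair. The median fold was 11.7 for the wild-type peaks of matrix genes, against 7.54 over all wild-type peaks. The median over the 20 knockout peaks was 7.52, the same as over all knockout peaks, and it was 9.58 for the shared and 6.84 for the unshared ones. The unshared peaks held 7 to 14 reads, with a median of 9 against 10 over all knockout peaks, and the shared ones 10 to 20.

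**Figure D4:**
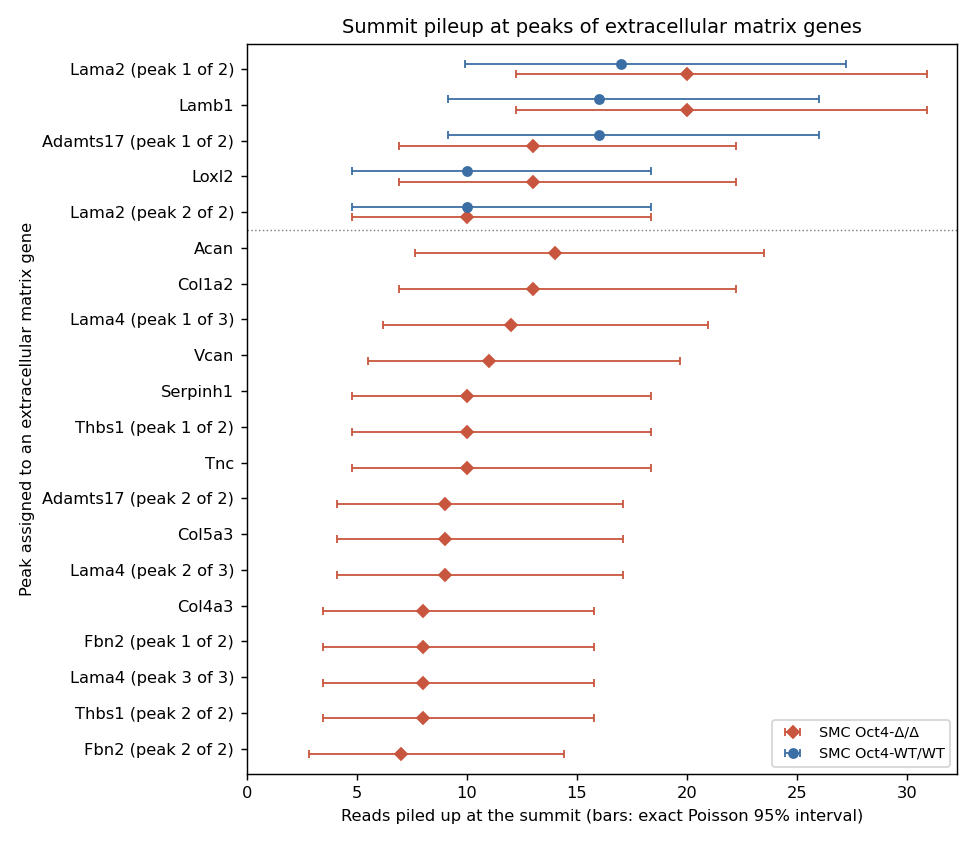
Reads piled up at the summit of each peak of a matrix gene, with exact Poisson 95% intervals (counting error only), in SMC Oct4-WT/WT (blue) and SMC Oct4-Δ/Δ (red). Above the dotted line are the 5 places called in both lists, whose intervals overlap, and below it the 15 called in SMC Oct4-Δ/Δ alone, with 7 to 14 reads.

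No matrix gene had a summit within 1 kb of one of its transcript starts, in either list, against 0.834% of all genes in SMC Oct4-WT/WT and 1.17% in SMC Oct4-Δ/Δ. Of the 5 wild-type summits 3 were in introns, 1 in an exon and 1 downstream, and of the 20 knockout summits 9 were in introns, 1 in an exon, 2 upstream and 8 downstream. Summits in the gene body were thus 80% and 50% of those assigned, against 24.8% and 25.6% over all pairs of a peak and a protein-coding gene, beside the longer windows of the matrix genes given above. None of the 5 wild-type windows and 3 of the 20 knockout windows (15.0%) had a median 31-mer count above 1 in the assembly, against 49.1% and 36.8% over all peaks on chromosomes.

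The octamer ATGCAAAT, or ATTTGCAT on the other strand, was found in 0 of 5 windows of 100 bp to each side of a wild-type summit and in 1 of 20 knockout windows, against 2.05% and 2.59% of all summits on chromosomes. The knockout window that held it was the one at Thbs1 with 2251 copies. The Sox core ATTGT, or ACAAT, was in 1 of 5 and 9 of 20 windows, against 32.3% and 32.9% of all. A match is a run of letters and not a binding site.

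Other short runs of letters stood out in the sequences at these summits and were then counted in windows of 201 bp around all summits and in windows of that length 1000 bp to each side. The letters TGTAATCCC, or GGGATTACA on the other strand, were at Lamb1 and Loxl2 in both lists and at Lama4 and Serpinh1 in SMC Oct4-Δ/Δ. Over all wild-type peaks they were in 5.08% of windows, against 0.342% of the side windows, and over all knockout peaks in 7.01% against 0.349%. The primate Alu repeats carry these letters in their consensus, while mouse B1 repeats mostly carry TTTAATCCC, or GGGATTAAA, in that place. The latter run, which differs from the former in 1 letter, was at Vcan alone, and over all peaks it was in 4.32% against 1.55% of windows in SMC Oct4-WT/WT and 5.70% against 1.87% in SMC Oct4-Δ/Δ. GCCTCAGCC, or GGCTGAGGC, was at Lama2 in both lists and at Col4a3 and Serpinh1 in SMC Oct4-Δ/Δ, and overall in 4% against 0.422% and 5.40% against 0.349%. GGAATGGAA, or TTCCATTCC, was at the higher peak of Lama2 in both lists and at the intron peak of Fbn2, and overall in 1.47% against 0.321% and 1.25% against 0.285%. A run of 12 T or 12 A was at 5 knockout windows, of Adamts17, Col1a2, Lama4 and Thbs1, and overall in 10.6% against 2.61% and 10.3% against 2.81%. Without TTTAATCCC, any of these runs was in 4 of the 5 wild-type and 13 of the 20 knockout windows of matrix genes, against 20.2% and 22.8% of all windows and 3.66% and 3.76% of side windows. These runs were chosen after the sequences of the matrix genes were read, so their number among those genes is a description.

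TGTAATCCC and GCCTCAGCC occur in the Alu consensus, and GGAATGGAA in the GGAAT satellite repeats of human chromosomes. At least 1 of these 3 was in 4 of the 5 wild-type windows (those of Lama2, Lamb1 and Loxl2) and in 8 of the 20 knockout windows. Over all peaks they were in 9.85% of wild-type and 12.8% of knockout windows, against 1.08% and 0.983% of side windows. Of the windows with such a run, 88% in SMC Oct4-WT/WT and 90% in SMC Oct4-Δ/Δ had a median of 1 copy in the mouse assembly. Whether reads from human DNA were among those counted at these summits was not tested, and the reads and folds given for these genes carry that limit.

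The window of 50 kb decided several memberships. The assigned summits farthest from their gene were at 45.7 kb for Thbs1 and 43.3 kb for Adamts17. Just outside lay knockout summits at 55.0 kb from Col14a1, with a fold of 8.21, and shared summits at 59.98 kb from Adamts1, with folds of 5.49 in SMC Oct4-WT/WT and 6.84 in SMC Oct4-Δ/Δ. A wild-type peak that no knockout peak overlapped lay 76.3 kb from Spp1, with a fold of 5.49. An unshared knockout peak lay 82.6 kb from the same gene, with a fold of 6.84. At 67.6 kb from Timp2, which encodes an inhibitor of metalloproteinases, a shared peak had 16 and 24 reads and folds of 11.7 and 17.1. Higher still were the shared peaks at 84.7 kb from Vcan, with 34 and 46 reads and folds of 24.0 and 32.2, at 83.8 kb from Col6a3, with folds of 13.7 and 19.8, and at 94.3 kb from Adamts7, with folds of 15.1 and 19.2. The peak near Vcan lies in an intron of the neighbouring Hapln1, the link protein that joins proteoglycans to hyaluronan. The folds at Vcan, Adamts7 and Col6a3 were above those of every peak inside 50 kb of the 60 genes in SMC Oct4-WT/WT.

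A further 146 genes of the pathway that are not among the 60 were counted in the same way, of which 23 were cell-surface receptors for the matrix. The receptors gave 4 of the genes with a wild-type peak and 8 of those with a knockout peak. A wild-type peak was assigned to 37 of the 146 (25.3%, exact binomial 95% interval 18.5 to 33.2), against 18.8% of all genes, and a knockout peak to 59 (40.4%, interval 32.4 to 48.8), against 30.5%. Both shares lay above those of the 60 genes and of all genes, and no test of the difference was made. The shares of the 146 genes were not set against the length of their windows or an even spread.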

How the data were processed

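Oct4 peak lists of 1 sample per genotype were used as deposited. According to the methods, reads were mapped with Bowtie (GRCm38.p6), SAMtools served to discard duplicate reads, and the authors ran MACS2, keeping peaks with q below 0.05. The control of the call is not given in the sources used here. The fold of every peak followed from a single expected pileup per list, so the folds hold no correction for local background. The deposited lists hold the MACS2 score, the fold enrichment (a ratio), the -log10 p and -log10 q, and, as another value, the summit offset in bp. The wild-type over knockout list, equal to the wild-type list, was read only for that comparison.

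Summit pileups were recovered from the even steps of the fold values. Summits were assigned to GENCODE M21 protein-coding genes, and an even spread was computed in closed form over the non-N bases of each chromosome. Peaks were shared at 1 bp or more. Copies are the median count over 31-mers within 100 bp of a summit. Crowded bins were counted over all contigs, scaffolds included. Every gene is accounted for by name. Those described in full have a high fold, an exon summit, a peak in 1 list alone or a shared peak. The genes and lists were chosen with earlier results of these data known. Of the 146 other genes of the pathway, 5 were matched through older symbols. The sequences of the other peaks are not reported here, and other data of the series were not analysed here. The steps were tested on simulated data. Python 3.11.15, numpy 2.4.6, pandas 2.3.3, scipy 1.17.1, numba 0.67.0 and matplotlib 3.10.9 were used.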

Additional observations from a re-analysis of the deposited data

How the results depend on the processing

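Of 36 values under alternatives, 32 counted as unmoved, which for numbers of genes meant within 1.5 times of the value reported and for shares and ratios within its 95% interval. The other 4, all numbers of genes, moved. Some of the 32 could not change, as no peak of a matrix gene lay in a crowded bin and all had q below 0.01. This fixed the numbers of genes and the shares under those settings. The interval of the wild-type share was wide (47.8 to 100), so its fall from 100% to 72.7% with the nearest transcript start counted as unmoved. The order against all genes turned in the nearest-start setting for both lists and at 10 kb for the knockout list. A window of 100 kb gave a wild-type peak to 10 matrix genes (29.6% of all genes) and a knockout peak to 22 (45.6%). A window of 10 kb gave a knockout peak to 9 of 60, slightly above the 14.2% of all genes. Assignment to the nearest transcript start, at any distance, gave a wild-type peak to 9 (11.3% of all genes) and a knockout peak to 17 (17.7%), so that matrix genes then lay above all genes. The window changes follow from the distance. The nearest-start setting alters the reference point, the number of genes per peak and the distance together, and the cause was not tested. The ratio of wild-type peaks to an even spread ran from 0.287 to 0.459 over its settings, a move of over 1.5 times that lies inside the interval of 0.0932 to 0.670, and that of knockout peaks from 0.70 to 0.91. With the 5455 knockout peaks of lowest q (highest -log10 q), 11 matrix genes had a knockout peak (27.3% of all genes). No paired analysis was possible because each genotype has a single ChIP sample. The lists start at 5 reads per summit, so weaker sites were not detectable, and intervals cover counting error only. A peak within 50 kb need not act on the gene.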

Other observations

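Among the 146 other genes of the pathway, receptors included, 35 of the 41 wild-type peaks were overlapped by a knockout peak (85.4%, against 66.7% of the wild-type peaks on chromosomes). Of their 83 knockout peaks, 36 were overlapped by a wild-type peak (43.4%, against 47.6% of the knockout peaks on chromosomes). Several of their peaks were higher than any of the 60 genes described above. The highest lay 41.1 kb from Ccn1, a matricellular protein, with 59 reads and a fold of 41.1 in SMC Oct4-WT/WT and 71 reads and a fold of 49.3 in SMC Oct4-Δ/Δ. An intron peak of Ddr2, a collagen receptor, had folds of 38.4 and 43.1 in sequence with a median of 8 copies. An intron peak of Lamb3, a laminin chain of epithelial basement membranes, had folds of 36.3 and 34.2 in sequence with 29 copies. In the body of Hapln1 the folds were 24.0 and 32.2, and in that of Lama1 they were 25.4 and 23.3.

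Ltbp4, which binds latent TGF-beta to the matrix, had a shared summit 0.361 kb from a transcript start in SMC Oct4-WT/WT and 0.370 kb in SMC Oct4-Δ/Δ, with folds of 7.54 and 9.58. Among metalloproteinases and inhibitors outside the 60 genes, Timp1, Mmp19, Mmp24, Adamts3 and Adamts14 had shared peaks, with folds from 7.54 to 15.7. These genes were picked from the 146 after their values were seen.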
